A study of Mus musculus with 18 samples.

Results

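The genes of Hedgehog and parathyroid hormone-related protein (PTHrP) signalling described here are 9 protein-coding genes chosen by name, Ihh, Ptch1, Smo, Gli1, Gli2, Gli3, Hhip, Pthlh and Pth1r, out of 49184 genes to which the cartilage reads were assigned. All 9 passed the filter on low counts and were tested. RNA came from cartilage of the femoral condyles, separated from bone near the border of uncalcified and calcified cartilage, in male C57Bl/6J mice that were 12 weeks old at the start. In these mice the anterior cruciate ligament (ACL) of the right knee was ruptured by a single mechanical load, and the left knee served as the contralateral control. The groups were 3 injured and 3 contralateral libraries at day 1, 3 injured and 3 contralateral libraries at day 7, and 6 libraries from naïve mice, which were not loaded and which the labels place at day 7. All groups were wild type with no transgene, and each library was a pool of knees, so that n counts pools and not mice. The sources differ on the number of mice in a pool, and the labels do not say which libraries share mice, so all were treated as independent. The study's design scheme states that cartilage was partly lost by day 7, and gives this as a reason for its pool size. How far this loss changed the tissue in the day 7 libraries was not tested. The study names 6 naïve mice, and its design pooled their left and right knees separately. By that account the 6 naïve libraries, each a pool, share mice. Then n = 6 counts fewer independent sets of mice, and p-values against naïve mice may be too small. Total estimated counts ranged from 16074762 to 41794005 per library (median 25465706).

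Indian hedgehog (Ihh) is a secreted ligand made by prehypertrophic chondrocytes. It binds the receptor Ptch1, which otherwise holds the membrane protein Smo inactive, and freed Smo acts through the primary cilium on the transcription factors Gli1, Gli2 and Gli3. Ptch1, Hhip and Gli1 are themselves induced by the pathway in many tissues and are commonly read as its output, and Gli3 is mainly known as a repressor. In the growth plate Ihh induces Pthlh, which encodes PTHrP, and PTHrP acts through its receptor Pth1r to hold chondrocytes short of hypertrophy, which in turn limits Ihh.

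The labels give the cell type of every library as chondrocyte, but the RNA was mixed. In naïve libraries Col2a1, the main collagen of cartilage, had a level of 356 ± 122 TPM (the deposited level per length; SD, n = 6), whereas Col1a1, the main collagen of bone, had 1093 ± 351 TPM and the red cell gene Hbb-bs 16180 ± 2234 TPM. CPM values are the estimated counts of a gene scaled to a common library size after TMM normalization and are used here to compare 1 gene between libraries. Fewer cells of a type and less RNA per cell cannot be told apart in such bulk samples. One library stood apart: in day 7 contralateral replicate 1 the top 10 genes held 42.5% of all counts, whereas in the other libraries they held 16.6% to 29.8%. Its summed osteoblast markers were 80100 CPM and its summed erythroid markers 64660 CPM. Tests against day 7 contralateral knees were run with and without it, and differences for the 9 genes, the named pathway genes and the marker lists are given below.

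At day 7 the injured cartilage carried more RNA of Smo, Gli3 and Pthlh than cartilage of naïve mice, of contralateral knees at day 7 and of injured knees at day 1. Against naïve mice, Smo rose 1.98-fold, Gli3 2.52-fold and Pthlh 2.49-fold. The genes usually read as pathway output did not pass the test: Ptch1 differed from naïve mice 1.06-fold, Gli1 1.16-fold and Hhip 0.720-fold. Pth1r was 1.496-fold higher and passed the FDR limit, just short of the fold limit. A gene was called at a false discovery rate (FDR) of at most 0.05 in edgeR's quasi-likelihood test, adjusted over all genes tested, together with at least a 1.5-fold change. By this rule 3 of the 9 genes were called higher and 0 lower in day 7 injured against naïve libraries, where 10.4% of all genes were called higher and 6.11% lower. The same 3 genes were called higher, and 0 lower, against day 7 contralateral libraries (background 9.33% higher and 3.23% lower) and against day 1 injured libraries (background 9.04% higher and 6.38% lower). The 3 comparisons share the day 7 injured libraries. All 3 calls against day 7 contralateral knees held without the contralateral library that stood apart (background 9.31% higher and 1.99% lower). Without it the 6 other genes were again not called, with log2 fold changes against day 7 contralateral knees of 0.20 for Ihh, 0.09 for Ptch1, −0.36 for Hhip, 0.41 for Gli1, 0.47 for Gli2 and 0.22 for Pth1r.

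**Figure D1:**
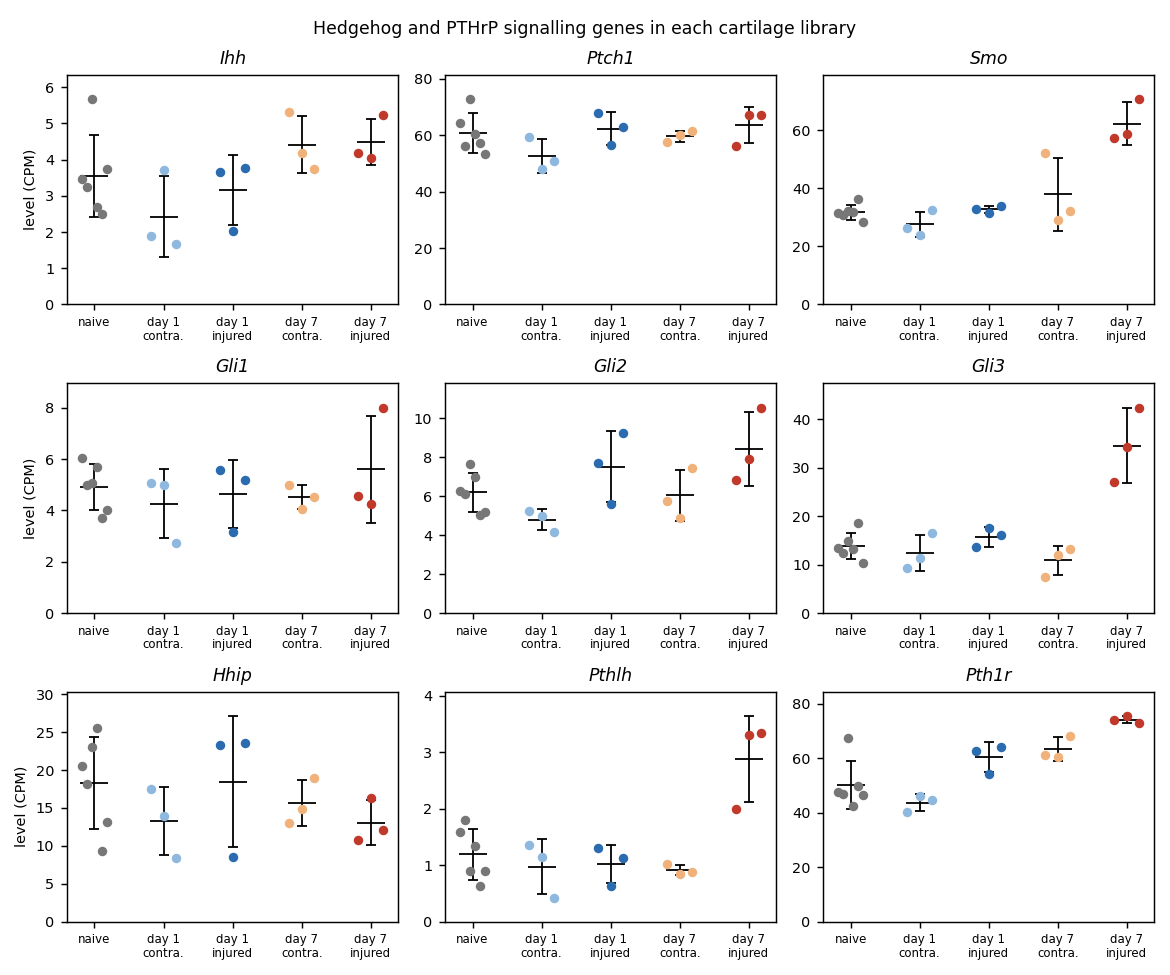
Level in CPM (vertical axis, starting at 0) of each of the 9 genes in every library, by group; each point is 1 library, the horizontal mark is the group mean and the bar is 1 SD either side. The 3 day 7 injured points of Smo, Gli3, Pthlh and Pth1r lie above every naïve and every day 7 contralateral point, whereas those of Ptch1 and Hhip lie among the other groups and 1 of the 3 points of Gli1, at 8.001 CPM, lies above every other Gli1 point.

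The genes lie apart in the genome. On GRCm38 Smo is on the plus strand at chr6:29735503-29761365 and Gli3 on the plus strand at chr13:15463235-15730026. Pthlh lies on the minus strand at chr6:147252101-147264183. Since these 3 genes were higher together, their promoter windows are shown, written along the gene's own strand. Each runs from 250 bases before to 50 after the start annotated by RefSeq on GRCm38.p6. The windows lie at chr6:29735247-29735546 (Smo), chr13:15463473-15463772 (Gli3) and chr6:147263964-147264263 (Pthlh). The gene coordinates above are those of GENCODE, and the RefSeq starts of Gli3 and Pthlh lie inside them. The window of Gli2, at chr1:119053570-119053869 on the minus strand, is shown for comparison, with capitals marking a match to the core of the sequence bound by GLI proteins.
Smo: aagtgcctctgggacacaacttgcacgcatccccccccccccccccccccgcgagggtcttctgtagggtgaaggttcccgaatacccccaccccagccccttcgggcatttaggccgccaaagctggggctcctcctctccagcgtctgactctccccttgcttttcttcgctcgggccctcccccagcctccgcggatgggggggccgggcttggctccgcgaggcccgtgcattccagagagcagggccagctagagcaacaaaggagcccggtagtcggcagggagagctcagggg
Gli3: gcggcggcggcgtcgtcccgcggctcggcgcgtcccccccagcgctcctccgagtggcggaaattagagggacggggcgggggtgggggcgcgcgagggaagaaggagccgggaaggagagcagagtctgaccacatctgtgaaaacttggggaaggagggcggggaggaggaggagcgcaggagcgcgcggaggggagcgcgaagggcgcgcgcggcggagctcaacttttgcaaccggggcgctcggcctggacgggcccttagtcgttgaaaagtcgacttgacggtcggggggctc
Pthlh: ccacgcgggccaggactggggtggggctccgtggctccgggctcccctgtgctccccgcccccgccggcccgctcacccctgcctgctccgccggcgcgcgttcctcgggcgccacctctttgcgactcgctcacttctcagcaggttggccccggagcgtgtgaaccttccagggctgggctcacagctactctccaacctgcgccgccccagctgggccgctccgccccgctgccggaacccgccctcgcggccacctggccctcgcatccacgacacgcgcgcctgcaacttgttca
Gli2: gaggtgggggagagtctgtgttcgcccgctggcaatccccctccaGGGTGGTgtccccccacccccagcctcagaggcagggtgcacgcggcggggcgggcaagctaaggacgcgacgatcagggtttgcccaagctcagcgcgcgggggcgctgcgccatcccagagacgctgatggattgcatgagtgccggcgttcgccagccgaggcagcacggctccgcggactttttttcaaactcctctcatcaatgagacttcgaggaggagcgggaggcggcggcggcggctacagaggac
The GLI consensus GACCACCCA, searched on both strands, was in none of the windows of the 8 member genes that had one, against 83 of 32851 windows of all genes (0.253%). The shorter ACCACCC, which lies within that consensus, was found once, in the Gli2 window, where it stands on the opposite strand from base 46. It occurred in 4.61% of all windows. A match is only a run of letters, and its absence from a window says nothing about binding. The share of G and C was 67.7% in the Smo window, 71% for Gli3, 74% for Pthlh and 67.3% for Gli2, against a median of 52.7% over all windows.

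Ihh, the ligand, was low in every group. Its level in naïve libraries had a lowest value of 2.51, a median of 3.35 and a highest of 5.67 CPM. It was 1.90, 3.72 and 1.66 CPM in day 1 contralateral, 3.65, 2.03 and 3.77 in day 1 injured, 5.30, 4.19 and 3.75 in day 7 contralateral and 4.18, 4.06 and 5.23 in day 7 injured libraries. The day 7 injured libraries lay within the ranges of naïve and day 7 contralateral libraries and above all 6 day 1 libraries. Ihh was not called in any comparison. Against naïve mice the log2 fold change at day 7 was 0.35 (95% interval −0.21 to 0.92, adjusted p = 0.378, edgeR) and against day 7 contralateral knees 0.04 (−0.60 to 0.68, adjusted p = 0.957). Part of its counts was assigned to a transcript with a retained intron, Ihh-202, from 30.5% of the pooled counts in day 7 contralateral to 40.1% in day 7 injured libraries, so that the gene level includes RNA that is not coding.

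Ptch1, the Hedgehog receptor, had similar levels in all 5 groups. Its mean level was 60.7 ± 7.03 CPM in naïve (SD, n = 6), 52.7 ± 6.0 in day 1 contralateral, 62.4 ± 5.78 in day 1 injured, 59.6 ± 2.01 in day 7 contralateral and 63.6 ± 6.40 in day 7 injured libraries (SD, n = 3 each). The 3 day 7 injured libraries had 56.2, 67.2 and 67.3 CPM, and naïve libraries ran from 53.4 to 72.8, with a median of 58.8. The groups overlapped throughout. At day 7 the log2 fold change was 0.08 against naïve (95% interval −0.12 to 0.29, adjusted p = 0.571) and 0.09 against contralateral knees (−0.14 to 0.33, adjusted p = 0.654), which leaves out a 1.5-fold change in either direction. Ptch1 counts were divided mainly between 2 coding transcripts: Ptch1-202 held 52.7% and Ptch1-201 36.0% of the pooled counts in naïve libraries, and 51.3% and 41.6% in day 7 injured libraries.

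Hhip, a membrane protein that binds and sequesters Hedgehog ligands, varied more among replicates than between groups. Naïve libraries ran from 9.35 to 25.5 CPM with a median of 19.4, and the day 7 injured libraries had 10.7, 16.4 and 12.1 CPM. In day 1 injured libraries it was 23.4, 8.49 and 23.5 CPM, a coefficient of variation of 46.8%. At day 7 the log2 fold change was −0.47 against naïve (95% interval −1.16 to 0.21, adjusted p = 0.325) and −0.27 against contralateral knees (−1.02 to 0.48, adjusted p = 0.686). A 1.5-fold fall could not be told from no change at this spread.

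Smo, the signal transducer that Ptch1 restrains, had 28.4 to 36.3 CPM in naïve libraries, with a median of 31.6. It was 26.3, 24.1 and 32.4 CPM in day 1 contralateral and 32.9, 31.5 and 33.8 CPM in day 1 injured libraries. At day 7 it was 52.2, 29.0 and 32.3 CPM in contralateral and 57.4, 58.6 and 70.6 CPM in injured libraries. The day 7 injured libraries lay above all others, and the high contralateral value is that of the library that stood apart. Smo rose by a log2 fold change of 0.99 against naïve (standard error 0.0981, adjusted p = 2.58e-06), 0.95 against day 1 injured (0.117, adjusted p = 4.91e-05) and 0.72 against day 7 contralateral knees (0.171, adjusted p = 0.00611). Without day 7 contralateral replicate 1 the last value was 1.04. Without day 7 contralateral replicate 2 it was 0.55 and below the fold limit. Without day 7 injured replicate 3 it was 0.61 with an adjusted p of 0.0517.

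Among the 3 Gli transcription factors Gli3 alone was called. Its level was 10.4 to 18.6 CPM in naïve libraries, with a median of 13.4, and 26.97, 34.21 and 42.41 CPM in day 7 injured libraries. Day 7 contralateral libraries had 7.48, 12.0 and 13.2 CPM, day 1 contralateral libraries 9.27, 11.4 and 16.4 CPM and day 1 injured libraries 13.5, 17.5 and 16.1 CPM. All 15 other libraries lay below the lowest day 7 injured library. Gli3 rose by a log2 fold change of 1.33 against naïve (standard error 0.189, adjusted p = 8.10e-05), 1.65 against day 7 contralateral (0.248, adjusted p = 1.32e-04) and 1.15 against day 1 injured libraries (0.228, adjusted p = 0.00205). Without day 7 contralateral replicate 1 the contralateral comparison gave 1.47. The full-length coding transcript Gli3-201 held 89.7% of the pooled counts in naïve and 91.9% in day 7 injured libraries.

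Gli1, the activator that is itself a target, had 3.70 to 6.03 CPM in naïve libraries, with a median of 5.02, and 4.541, 4.245 and 8.001 CPM in day 7 injured libraries. The upper day 7 value lay above all naïve libraries and the other two lay among them. Its log2 fold change was 0.21 against naïve (95% interval −0.29 to 0.71, adjusted p = 0.557) and 0.32 against day 7 contralateral knees (−0.25 to 0.88, adjusted p = 0.501). Without day 7 injured replicate 3, the high library, these values were −0.14 and −0.04, so that their sign rested on that library. Gli1 overlaps the end of Arhgap9, a gene on the other strand with a median of 1414 counts per library. The sources used here do not say whether the counting used strand. Gli2, the main activator downstream of Smo, had 5.01 to 7.67 CPM in naïve libraries, with a median of 6.18, and 6.86, 7.92 and 10.6 CPM in day 7 injured libraries. Its log2 fold change was 0.46 against naïve (standard error 0.177, adjusted p = 0.0619) and 0.48 against day 7 contralateral knees (0.220, adjusted p = 0.149), neither of which passed. With an offset for transcript length the second value was −0.06. Without day 7 injured replicate 1 Gli2 was called against naïve mice, at 0.60 with an adjusted p of 0.0377.

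Pthlh, which encodes PTHrP, had few counts in every library. Its level was 0.637 to 1.79 CPM in naïve libraries, with a median of 1.11, from 16 to 38 counts per library. It was 1.36, 1.14 and 0.421 CPM in day 1 contralateral and 1.293, 0.6358 and 1.119 CPM in day 1 injured libraries. Day 7 contralateral libraries had 1.01, 0.847 and 0.879 CPM, and day 7 injured libraries 1.998, 3.295 and 3.330 CPM, from 44, 52 and 72 counts. All day 7 injured libraries lay above all others. Pthlh rose by a log2 fold change of 1.32 against naïve (standard error 0.354, adjusted p = 0.0115), 1.66 against day 7 contralateral (0.424, adjusted p = 0.0104) and 1.52 against day 1 injured libraries (0.424, adjusted p = 0.0178). The call against naïve mice was lost without day 7 injured replicate 3, at 1.19 with an adjusted p of 0.0607. The call against day 1 injured libraries was lost without day 1 injured replicate 2 (1.25, adjusted p = 0.0713), day 7 injured replicate 2 (1.41, adjusted p = 0.0554) or day 7 injured replicate 3 (1.39, adjusted p = 0.0611). Without day 7 contralateral replicate 1 the contralateral comparison gave 1.75. Nearly all counts came from the transcript Pthlh-201, except in 1 naïve library where it held 27.3%.

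Pth1r, the G protein-coupled receptor for PTHrP and parathyroid hormone, had 42.5 to 67.2 CPM in naïve libraries, with a median of 47.3. Day 1 contralateral libraries had 40.1, 46.2 and 44.7 CPM, and day 1 injured libraries 62.7, 54.2 and 64.2 CPM. At day 7 it was 61.3, 60.4 and 68.2 CPM in contralateral and 73.8, 75.3 and 72.8 CPM in injured libraries. The day 7 injured libraries lay above all others and close together, with a coefficient of variation of 1.75%. The log2 fold change was 0.58 against naïve mice (standard error 0.113, adjusted p = 0.00125), just below the fold limit, and 0.22 against day 7 contralateral knees (95% interval −0.03 to 0.48, adjusted p = 0.263). Without naïve replicate 3, the highest naïve library, the first value was 0.68 and the gene was called. The transcript Pth1r-202 held 20.9% of the pooled Pth1r counts in day 7 injured libraries (13.1% to 37.0% in single libraries) and 7.20% in naïve libraries (1.5% to 14.7%), a share that was not tested. Pth1r overlaps Myl3, a muscle gene on the other strand with a median of 195 counts per library.

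**Figure D2:**
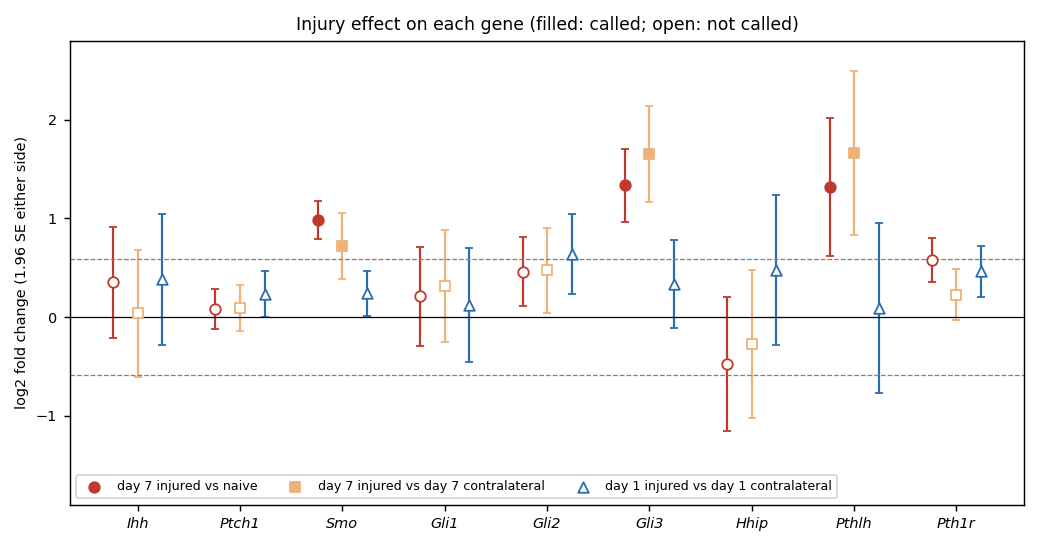
Log2 fold change (vertical axis) of each of the 9 genes for day 7 injured against naïve, day 7 injured against day 7 contralateral and day 1 injured against day 1 contralateral libraries; bars are 95% intervals, dashed lines mark a 1.5-fold change and filled symbols are called genes. Only Smo, Gli3 and Pthlh have filled symbols, in both day 7 comparisons, and the bars of Ptch1 at day 7 stay within the dashed lines. The bars are normal intervals and can be narrower than edgeR's test implies. Those of Smo and Ptch1 at day 1 leave out 0, whereas their unadjusted p in edgeR was 0.0563 and 0.0639.

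By ranges alone, 4 of the 9 genes (Smo, Gli3, Pthlh and Pth1r) had all 3 day 7 injured libraries above all 6 naïve libraries, and 0 had them all below, where 17.3% of all genes were so placed above and 10.8% below. The same 4 genes had the day 7 injured libraries above all day 7 contralateral libraries, and 0 below, against 18.6% and 14.3% of all genes (26% and 24.3% without the library that stood apart, with the same 4 genes above). The median log2 fold change of the 9 genes at day 7 was 0.46 against naïve mice and 0.32 against contralateral knees, beside −0.04 and −0.05 for all genes tested. The second was 0.41, beside −0.01, without the library that stood apart.

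At day 1 the test called none of the 9 genes. Injured against naïve libraries gave log2 fold changes from −0.20 to 0.27, and 1 gene, Pth1r, had an unadjusted p under 0.05. Injured against contralateral libraries gave values above 0 for all 9 genes, from 0.09 to 0.64, and 2 genes had an unadjusted p under 0.05, Pth1r at 0.46 (standard error 0.133, adjusted p = 0.755) and Gli2 at 0.64 (0.206, adjusted p = 0.755). In day 1 contralateral against naïve libraries all 9 values were below 0, from −0.56 for Ihh to −0.15 for Gli3, and 0 genes had an unadjusted p under 0.05. These last 2 comparisons share the day 1 contralateral libraries. Day 7 contralateral against naïve libraries gave 0 calls and 1 unadjusted p under 0.05, for Pth1r at 0.34 (standard error 0.113, adjusted p = 0.248). The background was also 0% of all genes called in each of these 4 comparisons by edgeR, and limma-voom likewise called 0 of the 9 genes in them, as did DESeq2 in 3 of them, whereas for day 1 injured against naïve libraries DESeq2 gave no adjusted p for the 9 genes. Of all genes DESeq2 called 15, 0, 2 and 31 in the 4 comparisons, in the order given here, and limma-voom 0.

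Whether the injury effect, injured against contralateral, was larger at day 7 than at day 1 was tested as a difference of the 2 effects. Gli3 was the only one of the 9 genes called, with a difference of 1.31 on the log2 scale (standard error 0.344, adjusted p = 0.0396), where 3.77% of all genes were called in either direction. Pthlh had a difference of 1.57 (standard error 0.596, adjusted p = 0.177) and Smo of 0.48 (0.241, adjusted p = 0.342), so that a change in their injury effect over time was not shown. The Gli3 call was lost without any one of 9 libraries, among them the library that stood apart, without which its difference was 1.14 (adjusted p = 0.0615) and that of Smo was 0.80 (adjusted p = 0.0127, called), where the background was 4.41%.

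Levels of different genes were compared per length, as TPM, the deposited share of a library's transcripts after division by length, which are not scaled between libraries. In naïve libraries the order by median TPM was Pth1r (12.2), Ptch1 (5.68), Smo (4.77), Hhip (1.09), Gli3 (1.02), Ihh (0.934), Gli1 (0.809), Gli2 (0.558) and Pthlh (0.405). The ranges of neighbours overlapped in this order except between Pth1r and Ptch1 and between Smo and Hhip. In day 7 injured libraries Pth1r was again highest, at 16.1. Smo had a median of 7.03 and Ptch1 of 6.26, Gli3 followed at 1.98 and Pthlh had a median of 0.968, the fifth in order. The ranges of Smo and Ptch1 overlapped there (5.85 to 9.23 and 3.23 to 6.42 TPM), and so did those of Pthlh and Ihh (0.497 to 1.08 and 0.864 to 1.52 TPM). Within every day 7 injured library, however, Smo was above Ptch1 (5.85 and 3.23, 7.03 and 6.42, 9.23 and 6.26 TPM). Within every naïve library Ptch1 was above Smo, by little in naïve replicate 5 (5.731 and 5.705 TPM). Pthlh was above Ihh only in day 7 injured replicate 2 of that group (0.968 and 0.931 TPM). The order of genes within libraries was not tested. Hhip (0.662) and Gli1 (0.459) had the lowest medians there. TPM values should not be read between groups: over all genes the median shift from naïve mice on that scale was 0.55 (log2) in day 1 injured and −0.38 in day 7 injured libraries, beside 0.00 and −0.06 in CPM.

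Beyond the 9 genes, 71 genes in 6 lists of the same pathways were followed, of which 66 were tested. At day 7, 27 of the 66 were called higher and 0 lower than in naïve mice (background 10.4% and 6.11%), with a median log2 fold change of 0.27 beside −0.04 for all genes, and 21 were higher and 0 lower against day 7 contralateral knees (background 9.33% and 3.23%). Without the contralateral library that stood apart the last count was 22, with Kif7 and Ramp2 gained and Disp1 lost. Of the 27, Foxf1 and Foxl1 passed the filter on low counts only through the day 7 injured libraries, so the count that does not rest on them is 25. Both genes are also among the 21 and the 22 called against day 7 contralateral knees, so those counts rest partly on them. No support is taken from their calls in any comparison. Against day 1 injured libraries 21 were called higher and 0 lower (background 9.04% and 6.38%). None was called in the comparisons at day 1 or between controls. The 5 that were not tested were low: Pth and Pth2, the parathyroid hormone ligands other than PTHrP, had 0 counts in every library, and Shh had at most 14.

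**Figure D3:**
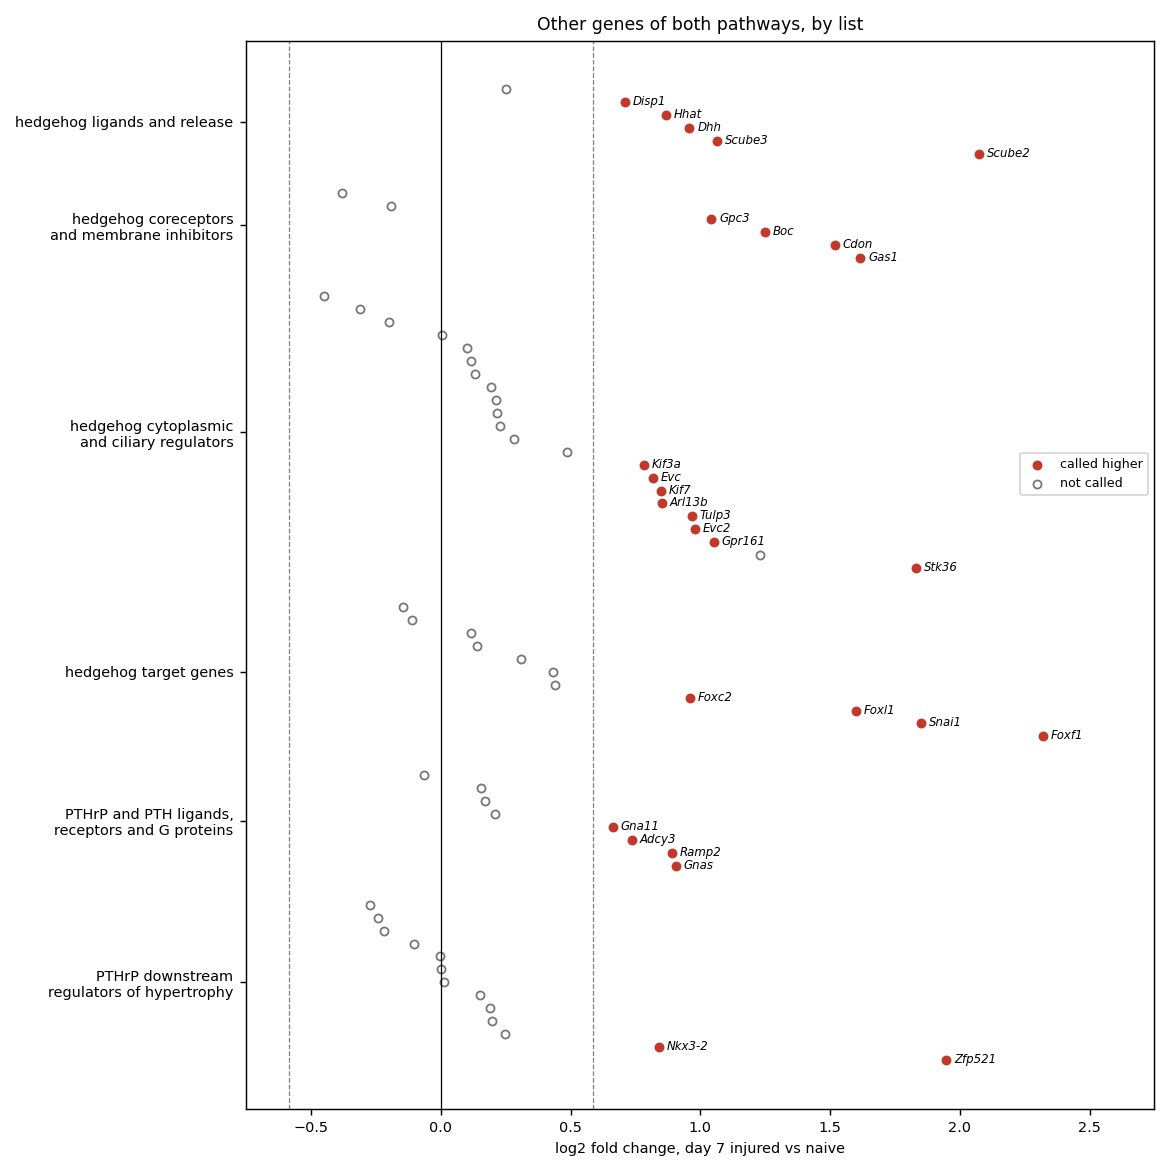
Log2 fold change at day 7 against naïve mice (horizontal axis) of the 66 tested genes of the 6 pathway lists, 1 point per gene, sorted within each list; filled points are called genes and dashed lines mark a 1.5-fold change. All 27 called genes lie to the right; the highest point is Foxf1 at 2.32, which rests on few counts, followed by Scube2 at 2.08.

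Genes that make and release Hedgehog ligands were called higher than in naïve mice in 5 of 6 tested cases, beside 10.4% of all genes. Scube2, a secreted protein that carries the lipid-modified ligand away from the cell, rose most. It had 1.71 to 3.54 CPM in naïve libraries (median 2.87), 1.64, 2.10 and 2.26 in day 7 contralateral and 9.76, 10.2 and 14.1 CPM in day 7 injured libraries, which lay above all others, a log2 fold change of 2.08 (standard error 0.244, adjusted p = 1.29e-05). Its relative Scube3 rose by 1.07, the ligand acyltransferase Hhat by 0.87 and the release channel Disp1 by 0.71. Dhh, a further Hedgehog ligand, rose by 0.96 (adjusted p = 0.0351) from a low level, 0.622 to 1.67 CPM in naïve and 2.18, 1.77 and 2.50 CPM in day 7 injured libraries. These 5 were called higher against day 7 contralateral knees too (background 9.33%). The Dhh call against naïve mice was lost without any one of naïve replicates 1 to 4 or of the day 7 injured libraries, with adjusted p-values from edgeR of 0.0502 to 0.138. The Disp1 call against contralateral knees was lost without day 7 contralateral replicate 1, where its log2 fold change was 0.51, under the 1.5-fold limit, and without day 7 injured replicate 3 (adjusted p = 0.0902). With an offset for transcript length the calls against naïve mice were lost for Dhh (0.56, adjusted p = 0.304), Disp1 (0.49, adjusted p = 0.0505) and Scube3 (0.67, adjusted p = 0.128), and against contralateral knees for Disp1 (adjusted p = 0.152) and Scube3 (adjusted p = 0.0957).

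Of 6 coreceptors and membrane inhibitors 4 were called higher than in naïve mice (background 10.4%) and 3 higher than in contralateral knees (background 9.33%), among them the coreceptors Cdon, Boc and Gas1, which present Hedgehog ligands to Ptch1. Cdon had 45.8 to 96.8 CPM in naïve libraries (median 65.9), 52.4, 48.4 and 62.7 CPM in day 7 contralateral and 161, 187 and 217 CPM in day 7 injured libraries. Boc had 18.2 to 29.7 CPM in naïve libraries (median 23.8), 23.3, 21.5 and 24.1 in day 7 contralateral and 52.2, 53.5 and 62.8 CPM in day 7 injured libraries. Gas1 had 32.9 to 75.5 CPM in naïve libraries (median 60.5), 99.7, 40.7 and 55.1 in day 7 contralateral and 159, 173 and 188 CPM in day 7 injured libraries. For each of the 3 genes the day 7 injured libraries lay above every naïve and day 7 contralateral library. Against naïve mice Cdon rose by 1.52, Boc by 1.25 and Gas1 by 1.62 on the log2 scale. The glypican Gpc3, which binds ligand at the cell surface, was higher against naïve mice (1.04, adjusted p = 0.0191) and missed the FDR limit against contralateral knees (adjusted p = 0.0505), which it passed with DESeq2 (adjusted p = 0.0238) and with the 2 groups fitted alone (adjusted p = 0.00892). The Gpc3 call against naïve mice was lost without any one of the day 7 injured libraries (adjusted p of 0.0501 to 0.0549), and the Gas1 call against contralateral knees without day 7 contralateral replicate 2 (adjusted p = 0.0596) or 3 (adjusted p = 0.0501). The other 2 genes on the list were not called in either comparison.

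Of 22 cytoplasmic and ciliary regulators, 8 were called higher than in naïve mice, against 10.4% of all genes. They were the ciliary membrane proteins Evc and Evc2, which act beside Smo, the ciliary motor subunit Kif3a, the kinesin-like regulator Kif7, the ciliary GTPase Arl13b, Tulp3, which carries receptors into the cilium, its cargo Gpr161, a negative regulator of the pathway, and the kinase Stk36. Their log2 fold changes ran from 0.78 for Kif3a to 1.83 for Stk36. Of these, 7 were also called against day 7 contralateral knees (background 9.33%), where Kif7 was at 0.64 with an adjusted p of 0.0841. Kif7 was called there with limma-voom (0.73, adjusted p = 0.0434) and without the contralateral library that stood apart (0.95, adjusted p = 0.0103), and the Evc call there was lost with an offset for transcript length (0.64, adjusted p = 0.0775). Stk36 rested on low levels, 0.963 ± 0.494 CPM in naïve (SD, n = 6) and 3.41 ± 0.890 in day 7 injured libraries (SD, n = 3). The list as a whole had a median of 0.25.

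Genes reported elsewhere as Hedgehog targets were called higher than in naïve mice in 4 of 11 tested cases (background 10.4%), Foxf1, Foxl1, Foxc2 and Snai1, all transcription factors, with a median of 0.43 for the list. Foxf1 had 0.104 to 0.331 CPM in naïve and 1.09, 0.697 and 1.34 CPM in day 7 injured libraries, and Foxl1 had at most 13 counts in any library, so that both rest on few counts. Both passed the filter on low counts only through the day 7 injured libraries, the group in which they were high, and no support is taken from their 2 calls. The count of 4 and the list median of 0.43 include both, so neither value is read as a result for the list. The calls on this list that do not rest on those libraries for the filter are Foxc2 and Snai1. The other 25 called pathway genes and all 9 genes of the main set passed it without those libraries. Snai1 had 11.4, 12.6 and 23.8 CPM in day 7 injured libraries and a median of 3.35 in naïve libraries, of which 1 reached 10.4 CPM; 1 day 1 contralateral and 1 day 1 injured library reached 11.2 and 11.4 CPM. Without day 7 injured replicate 3 the Snai1 call was lost against naïve mice (adjusted p = 0.0985) and against contralateral knees (adjusted p = 0.0591), and the Foxl1 call against contralateral knees was lost without that library (adjusted p = 0.0740) or day 7 contralateral replicate 2 (adjusted p = 0.0640). DESeq2 gave no adjusted p for Foxl1 in this comparison, and without day 7 contralateral replicate 3 its fitted log2 fold change went from 2.49 to 6.70. Foxc2 rose by 0.96 against naïve mice (adjusted p = 0.00260) and had 0.64 (adjusted p = 0.101) against contralateral knees, where it was called without day 7 contralateral replicate 3 (0.94, adjusted p = 0.0321) or day 7 injured replicate 2 (0.86, adjusted p = 0.0377). These 4 genes are known to be controlled by other pathways too.

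On the PTHrP side, 4 of 8 tested genes for ligands, receptors and their G proteins were called higher than in naïve mice (background 10.4%). Gnas, which encodes the stimulatory G protein subunit that couples Pth1r to cyclic AMP, had 412 to 508 CPM in naïve libraries (median 449.5), 451, 469 and 464 in day 7 contralateral and 773, 827 and 927 CPM in day 7 injured libraries. It rose by 0.91 (standard error 0.0832, adjusted p = 1.18e-06). Gna11, a subunit that couples the receptor to phospholipase C, rose by 0.66, the adenylyl cyclase Adcy3 by 0.74 and the receptor partner Ramp2 by 0.89. Gnas and Gna11 were called against day 7 contralateral knees as well (background 9.33%). Ramp2 was not, at 0.59 (adjusted p = 0.180), but was called at 1.06 (adjusted p = 0.00922) without the contralateral library that stood apart. Without day 7 injured replicate 3 the change of Gna11 against naïve mice was 0.58, under the 1.5-fold limit. Adcy3 was not called against contralateral knees: its levels were 51.9 ± 5.46 CPM in contralateral and 56.7 ± 2.32 CPM in injured libraries at day 7 (SD, n = 3 each).

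Downstream of PTHrP, 2 of 13 tested regulators of hypertrophy were called higher against naïve mice, beside 10.4% of all genes. Zfp521, a zinc finger protein known to act below PTHrP against Runx2, had 19.6 to 24.7 CPM in naïve libraries (median 22.9), 14.6, 17.5 and 21.5 in day 7 contralateral and 70.5, 81.1 and 106 CPM in day 7 injured libraries. All 3 injured libraries lay above the others, a log2 fold change of 1.95 (standard error 0.116, adjusted p = 1.68e-08). Nkx3-2, a repressor of hypertrophy, rose by 0.84 against naïve mice (adjusted p = 0.0305) and had 0.39 (adjusted p = 0.546) against contralateral knees, or 0.98 (adjusted p = 0.0845) without the library that stood apart. Its call was lost without any one of naïve replicates 2, 4, 5 and 6 or day 7 injured replicates 2 and 3 (adjusted p of 0.0503 to 0.117), and with all 18 libraries in the fit (adjusted p = 0.0813). The other 11 regulators were not called, and the median of this list was 0.01.

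Of the 66 pathway genes, 8 were called for a larger injury effect at day 7 than at day 1, and 0 for a smaller one, where 3.53% of all genes were called higher and 0.245% lower. They were Scube2 (2.22), Zfp521 (2.03), Gpr161 (1.23), Cdon (1.21), Gnas (0.89), Evc2 (0.82), Tulp3 (0.81) and Gna11 (0.62). This count fell to 5 without day 1 contralateral replicate 1, day 1 injured replicate 1 or day 7 injured replicate 2, to 4 without day 1 injured replicate 2, day 1 contralateral replicate 3 or day 7 contralateral replicate 2, and to 3 without day 7 injured replicate 3. It was 7 without the library that stood apart. The Gna11 call was lost under 15 and the Evc2 call under 12 of 21 alternatives.

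Markers of other cell types moved with the day 7 injury. The summed level of 10 synovial and perivascular fibroblast markers was 2235 ± 640 CPM in naïve (SD, n = 6), 2559 ± 1436 in day 7 contralateral and 23650 ± 1483 in day 7 injured libraries (SD, n = 3 each). Of the 10 markers, 6 were called higher than in naïve mice (background 10.4%) and 7 higher than in day 7 contralateral knees (background 9.33%; 6 without the library that stood apart), with 0 lower in either. Most of the sum was Col3a1, a fibrillar collagen, at 1825 CPM in naïve and 22660 in day 7 injured libraries, and the other 9 markers together had 410 ± 56.5 and 987 ± 86.3 CPM. Pdgfra and Thy1, which mark fibroblasts, rose by 1.32 and 1.91 on the log2 scale. Some endothelial markers rose as well. Pecam1, Cdh5, Esam and Emcn, 4 of 9, were called higher than in naïve mice (background 10.4%), by 0.59 to 1.04 on the log2 scale. Against day 7 contralateral knees 3 were called higher (background 9.33%), and 3 without the library that stood apart (background 9.31%). In these comparisons 0 were called lower. By the FDR limit alone, 6 of the 9 were higher and 1 was lower than in naïve mice. Vwf, the most abundant of the 9, was at −0.37 against naïve mice. The other 8 summed to 299 ± 24.3 CPM in naïve and 459 ± 44.6 CPM in day 7 injured libraries (SD, n = 6 and 3). The part of fibroblasts and endothelial cells in the changes of Smo, Gli3, Pthlh and the coreceptors was not tested.

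Osteoblast and osteocyte markers summed to 20400 ± 5947 CPM in naïve (SD, n = 6), 46960 ± 29100 in day 7 contralateral and 79020 ± 5442 in day 7 injured libraries (SD, n = 3 each), with Col1a1 and Col1a2 called higher and the osteocyte genes Sost and Mepe lower than in naïve mice, and 8 of the 12 not called. The sum was 80100 CPM in the contralateral library that stood apart and 25580 and 35200 CPM in the other two. The 15 chondrocyte markers summed to 6762 ± 1428 CPM in naïve and 9936 ± 995 CPM in day 7 injured libraries, with Sox9, Acan, Col11a1 and Comp called higher, Chad lower and Col2a1 at 0.25 (adjusted p = 0.358). The 13 hypertrophic and growth plate markers, which include Ihh, summed to 2079 ± 341 and 2700 ± 138 CPM. Of them Panx3, Ibsp and Mmp13 were called higher than in naïve mice, where 10.4% of all genes were, and none against contralateral knees, and Col10a1, the collagen of hypertrophic cartilage, was at −0.02 (adjusted p = 0.971). Spp1 was the most abundant of them. Against naïve mice, where 6.11% of all genes were called lower, erythroid markers fell in 5 of 8 cases, from a sum of 34650 ± 3950 to 22620 ± 5471 CPM, and adipocyte markers, led by Cfd, in 4 of 7, from 538 ± 202 to 230 ± 42.6 CPM. Of the other lists 2 of 9 osteoclast markers were called higher, 2 of 9 neutrophil, 1 of 7 B cell and 1 of 10 muscle markers lower, and 0 macrophage and 0 proliferation markers either way. Of the markers found in the files none was at or under 3 counts in every library, and 1 erythroid marker, Ahsp, had no value here. Against day 7 contralateral knees the marker calls moved with the library that stood apart. Of all genes, 9.33% were called higher and 3.23% lower with it, and 9.31% and 1.99% without it. Erythroid markers had 4 called lower with it and 0 without it, and adipocyte markers 4 and 2. Osteoblast and osteocyte markers had 0 called higher and 1 lower with it, and 2 higher and 2 lower without it. Chondrocyte markers had 5 called higher with it and 4 without it, macrophage and proliferation markers 1 lower each with it and 0 without it, and neutrophil markers 3 lower in both. The part of these cell types in the results was not tested.

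**Figure D4:**
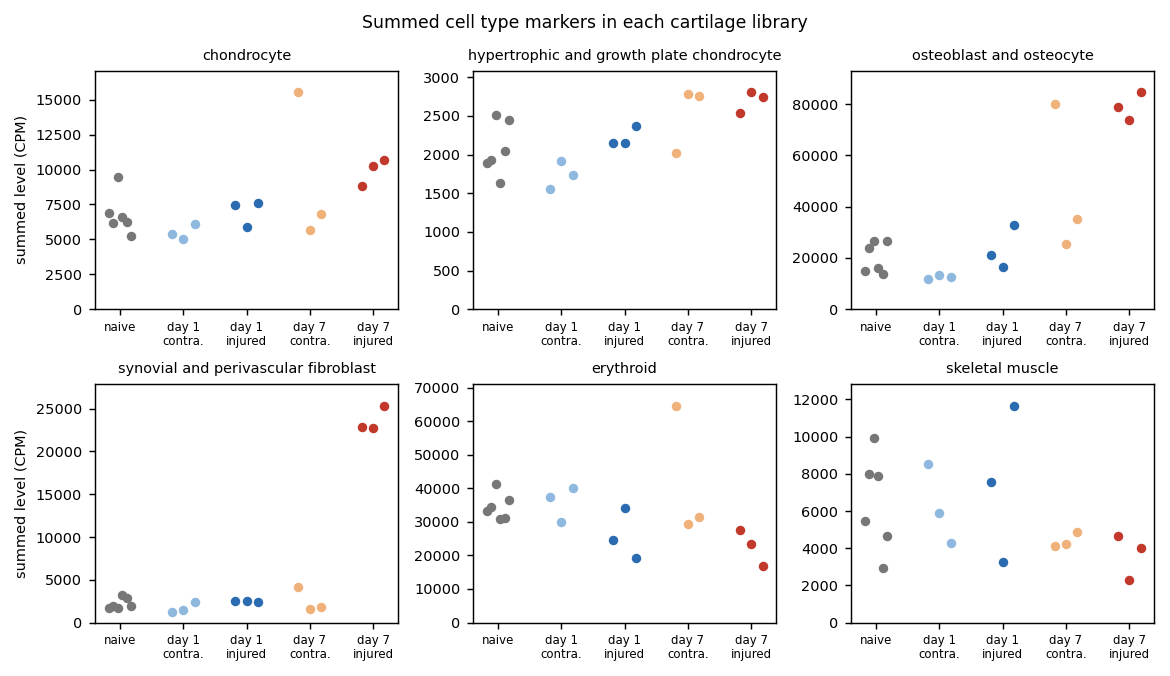
Summed level in CPM (vertical axis, starting at 0) of 6 lists of cell type markers in each library; each point is 1 library. Fibroblast markers are at 22700 CPM or more in the 3 day 7 injured libraries and at 4210 CPM or less elsewhere, and osteoblast and erythroid markers are high in the day 7 contralateral library that stood apart.

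Across the 18 libraries the genes most like Ihh in log2 level were Col10a1 (Pearson's r = 0.871), Smpd3 (0.870), Fam20c (0.817), Col24a1 (0.800) and Arl4d (0.784). Without the day 7 injured libraries r with Col10a1 was 0.943 over 15 libraries. For Pthlh the first 4 were Aaed1 (0.932), Txndc16 (0.931), Sema3c (0.927) and Rspo2 (0.922), and without the day 7 injured libraries these fell to between 0.778 and 0.805. Gli1 was most like Trhde (0.845), Tns1 (0.837), Osbpl1a (0.834), A330074K22Rik (0.834) and Enpp2 (0.823), and Pth1r most like Cgref1 (0.876), C77080 (0.861), Myo10 (0.859), Shc2 (0.854) and Mark1 (0.853). Among the 9 genes, Smo and Gli3 had r = 0.707 over 18 libraries and −0.126 over the 15 without day 7 injured knees, and these values were 0.961 and 0.800 without the contralateral library that stood apart, whereas Gli1 and Hhip had 0.598 and 0.878, and Gli1 and Pthlh 0.675 and 0.881 (0.610 and 0.909, and 0.684 and 0.886, without that library). These are descriptions over libraries that share normalization and, in part, mice, and genes were picked as the most alike among all those tested.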

How the data were processed

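Total RNA without ribosomal RNA of 18 cartilage libraries was sequenced with a stranded kit. After trimming, the authors quantified the reads with Kallisto on a mouse transcriptome and deposited estimated counts and TPM per transcript, neither normalized between libraries. The study's methods name GRCm38, whereas the submitters' processing notes name GRCh38; the identifiers are of mouse. The study left out 1 ACL library for low mapping without naming it.

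Here 135107 of 137436 transcripts (98.3%) were matched to GENCODE vM21, and their estimated counts were summed per gene and rounded. The unmatched held 0.667% to 3.90% of counts. Counts were tested with edgeR 4.0.16 (R 4.3.3; TMM, edgeR's filter, a mean per group, quasi-likelihood F test, Benjamini-Hochberg adjustment) over 21129 genes on 15 libraries, or over 21262 genes on all 18 where the day 7 contralateral group was compared. A gene was called at FDR of at most 0.05 and at least 1.5-fold. Intervals of log2 fold changes are 95% normal intervals from the standard error, and can be narrower than the F test implies. DESeq2 1.42.0 and limma-voom (limma 3.58.1) were alternatives. The study's limma-voom model estimated a correlation between knees of the same mice, which the labels do not allow. Scripts were tested on simulated data. P-values measure the spread between pools, and counts cover counting error only. Likeness was Pearson's r of log2(CPM + 0.5).

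The 9 genes, the lists and the tests were chosen with earlier results of these data known. Named were all 9 genes, each list gene called in any comparison, each marker list's most abundant gene and the 5 genes most like Ihh, Gli1, Pthlh and Pth1r. Of these, 1 gene most like Pthlh is not reported here. Other marker genes were named after their values were seen. Summed markers were listed for 13 cell types, of which the sums of muscle (most abundant Myh4; 6478 CPM in naïve and 3640 in day 7 injured libraries), neutrophil (Ngp; 12690 and 9433), osteoclast (Mmp9; 1445 and 1960), macrophage (Csf1r; 726 and 872), endothelial (Vwf; 555 and 654), B cell (Cd79b; 133 and 108) and proliferation (Mki67; 2702 and 2065) markers are given here only. The promoter of Gli1 was not analysed here.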

Additional observations from a re-analysis of the deposited data

Results flagged for a closer look

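Among 36 groups of naïve libraries looked at, 1 for each of the 9 genes and the 27 named pathway genes, 4 had a library far from the others; chance marks about 1 in 20. Pth1r had 67.2 CPM in naïve replicate 3 against 42.5 to 49.6 in the others. In the same library Scube3 had 3.52 CPM against 2.39 to 2.65. Stk36 had 1.91 CPM in naïve replicate 5 against 0.622 to 1.05. Snai1 had 10.4 CPM there against 2.74 to 3.75.

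The injury effect, injured against contralateral, differed between day 7 and day 1 by edgeR's test of the difference for Gli3, at 1.31 on the log2 scale. It also differed for Scube2 (2.22), Zfp521 (2.03), Gpr161 (1.23), Cdon (1.21), Gnas (0.89), Evc2 (0.82), Tulp3 (0.81) and Gna11 (0.62).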

How the results depend on the processing

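Each of 72 values of the 9 genes was recomputed under up to 21 alternatives (other size factors, filters and limits, a transcript length offset, DESeq2, limma-voom, the compared groups alone, all 18 libraries, each library left out). Of 1233 alternative values 1204 kept their call or their lack of one, 21 lost their call, 8 gained one and 0 called values changed sign. Values for which DESeq2 gave no adjusted p are left out. Most of the 72 values were not called, and such a value counts as kept even where its sign changed. An example is Gli1 against naïve mice, which went from 0.21 to −0.14. The 1204 therefore says little about the called values, on which all 21 losses fell. The number of the 9 genes called at day 7 against naïve mice was 3 and ranged from 3 to 5 when a library was left out, with 5 without day 7 injured replicate 1 (Gli2 and Pth1r gained). Without day 7 injured replicate 3 the genes called were not the same, since Pthlh lost its call and Pth1r gained one. Against day 7 contralateral and against day 1 injured knees it was 3 and ranged from 2 to 3. For the difference of the injury effects it was 1, 0 at an FDR limit of 0.01, 0 with the groups compared only, and 0 to 1 when a library was left out. The Pthlh calls were lost at an FDR limit of 0.01, and Smo against day 7 contralateral knees with those groups only (adjusted p = 0.0894). Pth1r was called against naïve mice with no fold limit, with limma-voom and with the length offset. For the pathway genes the same alternatives were added after seeing the data. Their calls at day 7 numbered 23 to 38 against naïve mice under other settings and 22 to 26 when a library was left out, 18 to 27 and 18 to 22 against contralateral knees, and 14 to 26 and 15 to 20 against day 1 injured knees. With no fold limit, 3, 5 and 2 of these were lower, in that order. Ulk3 was called lower against contralateral knees without day 7 contralateral replicate 2 or 3. For the difference of the injury effects they were 8, with 3 to 10 under other settings (3 at an FDR limit of 0.01) and 3 to 8 when a library was left out. Of 1851 alternative values of the 27 named genes, 123 lost their call, 14 gained one and 0 called values changed sign. With Spearman's rho in place of Pearson's r, 1 of the 5 genes most like Ihh, 2 of those for Pthlh and 0 of those for Gli1 and Pth1r were still among the first 5, and without day 7 contralateral replicate 1 the numbers were 4, 1, 1 and 0 for Ihh, Gli1, Pthlh and Pth1r. The causes were not tested. No paired analysis was possible because the replicate numbers are only library order and the labels do not say which libraries share mice. Of 45 group levels, 21 lay within 1 SD on the TPM scale, which is not scaled between libraries. Pthlh is limited by depth, at 13 to 72 counts per library.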
